A study of Mus musculus with 2 samples.

Results

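S100 proteins and annexins are 2 families of calcium-binding proteins, some of which bind each other, and 8 of their genes are described here, S100a8, S100a9, S100a4, S100a6, S100a10, S100a11, Anxa1 and Anxa2, of 32285 genes listed. They were chosen by their behaviour in earlier analyses of the same 2 kidneys, so the ischemia values that follow are a description and no test is attached to them. Single-cell RNA sequencing (scRNAseq) had been run on 2 kidneys, 1 per condition, from male wildtype mice of the C57BL/6J strain at 19 weeks of age. The control kidney was the contralateral, uninjured kidney, and the ischemic kidney had 27 min of ischemia and 24 h of reperfusion (I/R). Each library came from 1 kidney, and whether both kidneys came from the same mouse is not given in the sources used here. With 1 library for each condition, the condition cannot be told apart from the library, and every interval below is at 95% and covers counting error only.

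After filters, 12586 control and 13116 ischemia cells remained, with a median of 3839 and 2138.5 UMIs per cell, a UMI being a tag that marks 1 captured mRNA molecule. The 2 libraries shared 88 barcodes as deposited, and 58 among the kept cells. Of 24 clusters, 21 were named from marker genes and gave 13 cell types, called "-like" here because the names rest on markers alone. The non-tubule types were neutrophil, macrophage, T/NK and B cells, endothelial cells (EC), pericytes with smooth muscle cells (pericyte-like below), and podocytes. The tubule types were proximal tubule (PT), thin limb, thick ascending limb (TAL), distal convoluted and connecting tubule (DCT-CNT), collecting duct principal cells (CD-PC) and intercalated cells (IC). The pericyte-like cluster was led by Acta2, Myh11, Tagln and Rgs5. Col3a1 and Col1a1 were also among its 10 leading genes, and the fibroblast marker list scored second (4.37 against 6.85). The largest unnamed cluster held 4515 control and 5803 ischemia cells with medians of 894 and 796 UMIs. The neutrophil-like cluster held 19 control and 178 ischemia cells, so its control values rest on few cells.

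S100 proteins bind calcium through EF-hand motifs and mostly work as dimers, while annexins bind membrane phospholipids when calcium rises. S100A8 and S100A9 form calprotectin, a major cytosolic protein of neutrophils that acts as an inflammatory signal once released. S100A10 pairs with annexin A2 at the plasma membrane, where the complex binds plasminogen, and S100A11 pairs with annexin A1, which limits neutrophil recruitment through formyl peptide receptors.

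In GENCODE M21 on GRCm38, the build named mm10 in the submitters' processing notes, all 6 S100 members lie on chromosome 3. S100a4 (ENSMUSG00000001020, chr3:90603771-90606045, + strand), S100a6 (ENSMUSG00000001025, chr3:90612882-90624181, +), S100a8 (ENSMUSG00000056054, chr3:90668978-90670035, +) and S100a9 (ENSMUSG00000056071, chr3:90692632-90695721, −) lie close together. S100a11 (ENSMUSG00000027907, chr3:93520488-93526287, +) and S100a10 (ENSMUSG00000041959, chr3:93555080-93564643, +) follow further along the same chromosome, and the span from S100a4 to S100a10 is 2.96 megabases. Anxa2 (ENSMUSG00000032231) lies at chr9:69453620-69491795 on the + strand and Anxa1 (ENSMUSG00000024659) at chr19:20373428-20390944 on the − strand. S100a4 overlaps the protein-coding Gm42674 on its own strand, and a processed pseudogene, S100a11-ps, is annotated elsewhere, so the values of S100a4 and S100a11 are uncertain to the extent that the counting split their reads.

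RefSeq promoter sequences on GRCm38.p6 were at hand for 7 of the 8 members, all but S100a10. The sequences below run 5′ to 3′ on the gene's strand, from 150 bases before the RefSeq start to 20 bases after it. They are shown for the calprotectin genes, which moved together, and for S100a11 and Anxa2, the 2 members whose promoters held the letters TGANTCA. Both were higher in tubule cells of the ischemic kidney. So was S100a6, whose promoter was at hand but lacked these letters and is not shown. Capitals mark TATAAA, the TATA box letters, in the calprotectin genes, and TGANTCA, the letters bound by AP-1 factors, in the other two.
S100a8, chr3:90668921-90669090, + strand: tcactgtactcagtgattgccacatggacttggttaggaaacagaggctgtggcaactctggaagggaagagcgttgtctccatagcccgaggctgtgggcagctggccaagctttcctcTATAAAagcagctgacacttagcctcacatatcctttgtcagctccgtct
S100a9, chr3:90695702-90695871, − strand: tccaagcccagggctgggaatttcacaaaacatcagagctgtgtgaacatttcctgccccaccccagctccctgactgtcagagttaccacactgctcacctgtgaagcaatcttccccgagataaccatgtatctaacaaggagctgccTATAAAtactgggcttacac
S100a11, chr3:93520346-93520515, + strand: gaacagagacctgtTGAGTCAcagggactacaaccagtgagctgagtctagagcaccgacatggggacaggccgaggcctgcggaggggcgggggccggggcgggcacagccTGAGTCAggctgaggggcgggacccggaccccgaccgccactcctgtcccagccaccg
Anxa2, chr9:69453533-69453702, + strand: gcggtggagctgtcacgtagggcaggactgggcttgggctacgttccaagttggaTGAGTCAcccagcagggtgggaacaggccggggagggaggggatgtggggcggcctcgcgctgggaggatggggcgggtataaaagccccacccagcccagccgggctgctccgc

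In S100a8 the TATAAA match began 30 bases before the RefSeq start, and in S100a9 it began at the start itself. S100a11 held TGANTCA at 136 and 38 bases before its start, and Anxa2 held it at 95 bases before. Over the full 300-base promoters, read on both strands, TATAAA occurred in 5 of the 7 members (S100a8, S100a9, S100a4, Anxa2 and Anxa1) and in 13.6% of all 32851 promoters. TGANTCA occurred in 2 of 7 and in 7.81% of all. Of 5 other patterns, GGGCGG (GC box, 35.7% of all) was in S100a9, Anxa2 and S100a11, CCAAT (37.4%) in S100a6, and CACGTG (E-box, 7.15%) in S100a6 and S100a11. No member promoter held the NF-kB pattern (0.411% of all) or TTCNNNGAA (STAT letters, 8.30%) in this window. The patterns were picked after a first look at these promoters, GGGCGG can overlap itself, and a match is only a description of letters.

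**Figure D1:**
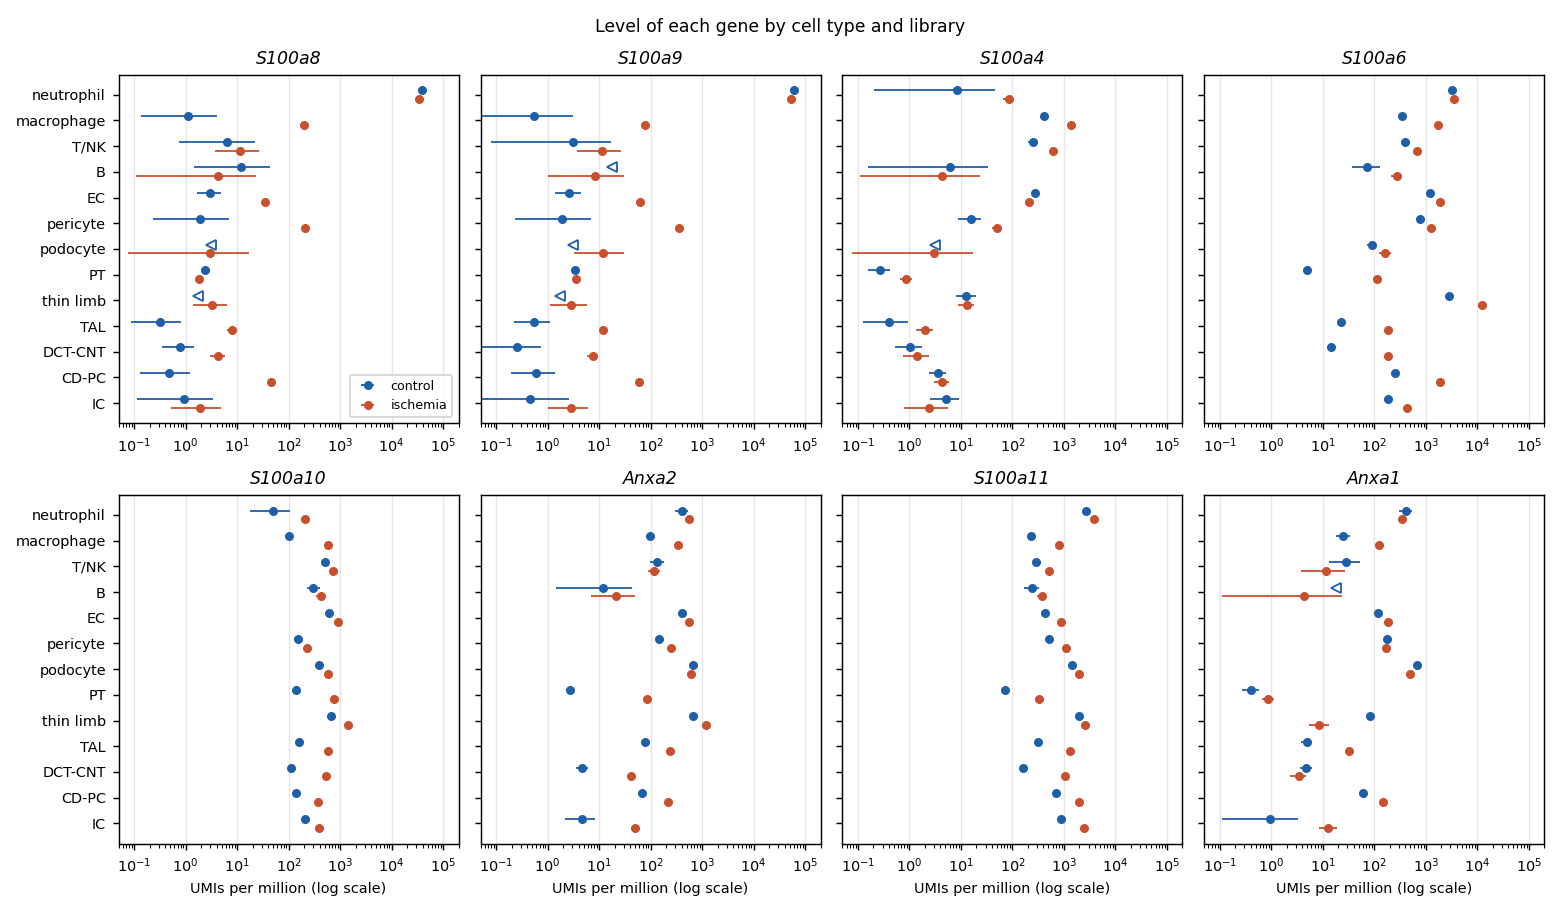
Level of each of the 8 genes in CPM (x axis, log scale) by cell type (y axis), with control in blue and ischemia in orange. Points are summed UMIs of 1 library, bars are exact Poisson 95% intervals, and open triangles mark types with 0 UMIs at the limit of 3 UMIs. S100a8 and S100a9 stand highest in neutrophil-like cells in both libraries, while S100a6, S100a10, Anxa2 and S100a11 in PT-like cells lie at 4.85, 142, 2.70 and 70.9 in control and at 112, 759, 84.7 and 334 in ischemia.

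Over all kept cells, 7 of the 8 members were at least 2-fold higher in the ischemic kidney. Levels are in CPM, the usual scale for the UMIs of a gene relative to all UMIs of its group of cells, and genes with at least 50 UMIs over both libraries were compared. S100a8 went from 39.5 CPM in control to 246 CPM in ischemia, a ratio of 6.23 (6.04 to 6.42). S100a9 went from 61.4 to 381 CPM, S100a6 from 135 to 716, S100a4 from 18.6 to 73.8, S100a10 from 173 to 689, S100a11 from 232 to 812 and Anxa2 from 52.7 to 176. Anxa1 was the exception, with 21.2 CPM in control and 38.7 CPM in ischemia, a ratio of 1.83 (1.74 to 1.92). With each cell thinned to 1000 UMIs the Anxa1 ratio was 2.03. The median member differed by 1.99 on the log2 scale against 0.13 over the 17061 genes compared, of which 8.75% were at least 2-fold higher. Because earlier results chose the members, their count is not read against that share as a result.

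The members differed in how their ratio changed at a fixed mix of cells. When the ischemia levels of each cell type were weighted by the control library's share of UMIs, the ratio over all cells came to 1.22 for S100a8 and 1.19 for S100a9. With that weighting it came to 1.74 for S100a4, 1.498 for Anxa1, 2.90 for Anxa2, 3.26 for S100a11, 4.01 for S100a10 and 4.05 for S100a6. S100a10 therefore kept its ratio of 3.98 at a fixed mix, whereas the ratios of S100a8 and S100a9, both above 6 as measured, fell close to 1.

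Among immune cells, the members were at least 2-fold higher most often in macrophage-like cells, in 8 of 8, where 5.58% of all genes compared were. In neutrophil-like cells they were in 2 of 8 (S100a4 and S100a10) against 24.7% of all genes, in T/NK-like cells in 1 of 5 compared (S100a4) against 2.59%, and in B-like cells in 1 of 3 (S100a6) against 8.12%. The macrophage-like cells differed in make-up, with 19 control and 278 ischemia cells in the monocyte-marker group described below. Within that group S100a4 and Anxa2 fell short of 2-fold, and within the dendritic group S100a6 and Anxa1 did. In EC-like cells 2 of 8 were higher (S100a8 and S100a9) against 1.93%, in pericyte-like cells 4 of 8 (S100a8, S100a9, S100a4 and S100a11) against 3.3%, and in podocyte-like cells 0 of 5 against 0.805%. Along the tubule, 6 of 8 were higher in PT-like cells (6.96% of all genes), 2 of 6 in thin limb-like (4.41%), 7 of 7 in TAL-like (8.36%), 5 of 6 in DCT-CNT-like (6.67%), 7 of 8 in CD-PC-like (5.91%) and 3 of 4 in IC-like cells (4.52%). Some of these rested on few UMIs. The PT-like count included S100a4, with 19 control and 59 ischemia UMIs, and Anxa1, with 29 and 59. With each cell thinned to 1000 UMIs the PT-like Anxa1 ratio of 2.14 was 1.37, while those of S100a8 and S100a9 were 8.90 and 2.97. The TAL-like count included S100a8, with 4 and 116 UMIs, and S100a9, with 7 and 172. The EC-like, pericyte-like and CD-PC-like counts also included both genes, with 15 and 13, 2 and 2, and 4 and 5 control UMIs. Most of their ischemia UMIs in these types lay in 5 cells, as described below. In EC-like cells S100a11 fell just short of 2-fold at 1.98, and was 2.27 with thinning. Among the members compared, a single one was at least 2-fold lower in any named type, namely Anxa1 in thin limb-like cells. In the cells that no marker list named, 7 of 8 members were at least 2-fold higher in the largest cluster (8.34% of all genes compared there) and 3 of 7 in a small one (5.56%).

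**Figure D2:**
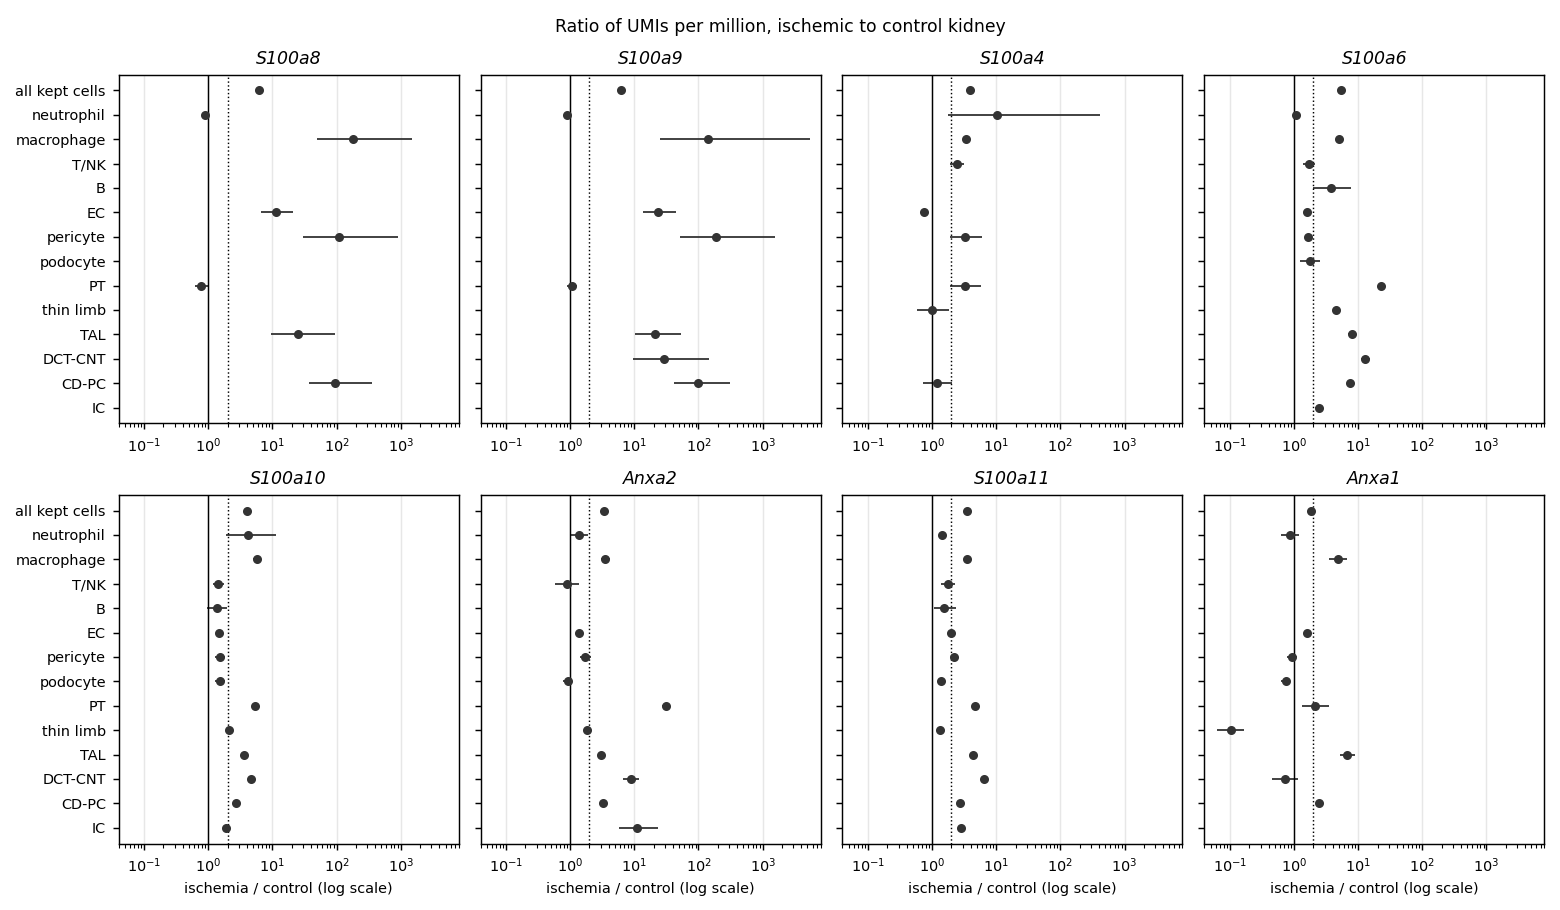
Ratio of ischemia to control CPM (x axis, log scale) of each gene, over all kept cells and by cell type (y axis), for genes with at least 50 UMIs over both libraries in that type. Bars are conditional exact 95% intervals for counting error, the solid line marks 1 and the dotted line 2. S100a6 and Anxa2 reach 23.0 and 31.4 in PT-like cells, S100a8 and S100a9 lie at 0.883 and 0.900 in neutrophil-like cells, and Anxa1 lies at 0.105 in thin limb-like cells.

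S100a8 and S100a9 were neutrophil transcripts in both kidneys. Neutrophil-like cells held 95.1% (94.4 to 95.7) of the S100a8 UMIs of the control library and 90.8% (90.4 to 91.1) of those of the ischemia library. For S100a9 the shares were 95.4% and 93.2%. Both genes were left out of the genes used for clustering and of the neutrophil marker list, although they led the cluster's genes by fold. Within neutrophil-like cells S100a8 measured 38495 CPM in control and 33985 CPM in ischemia, a ratio of 0.883 (0.856 to 0.911). S100a9 measured 60024 and 54012 CPM there, a ratio of 0.900 (0.878 to 0.922). These small differences rested on few control cells, since 5 of the 19 held 55.5% of the control S100a8 UMIs. Without the 5 cells richest in each gene the ratios were 1.11 for S100a8 and 1.32 for S100a9. That step left out 5 of 19 control but 5 of 178 ischemia cells, which lowers the control level more. It therefore cannot settle the direction of the differences, and the same holds wherever the 5 richest neutrophil-like cells are left out below. At clustering resolution 0.3 the S100a8 and S100a9 ratios were 1.88 and 1.92. The neutrophil-like cluster then held 33 control and 197 ischemia cells, and the pericyte list scored second. A small unnamed cluster of 14 control and 19 ischemia cells was no longer separate at that resolution. Added to the neutrophil-like cells, its cells make up the 33 and 197, and their UMIs together give the same 2 ratios. These 2 ratios therefore include other cells and are not a second estimate for neutrophil-like cells.

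The number of neutrophil-like cells differed far more than their calprotectin level. They made up 0.151% of the control cells and 1.36% of the ischemia cells. At a depth of 1000 UMIs per cell, S100a8 was detected in 18 of 19 control and 172 of 178 ischemia neutrophil-like cells. PT-like cells, which should lack it, had it in 2 of 3792 control and 13 of 2769 ischemia cells at that depth.

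Outside neutrophil-like cells, the calprotectin genes were far lower, and in several types they rested on few cells. In PT-like cells 83.8% of the control but only 4.15% of the ischemia S100a9 UMIs lay in 5 cells, and without the 5 richest cells the ratio of 1.05 was 6.24. There S100a9 measured 3.35 CPM in control and 3.53 CPM in ischemia, which was 0.00558% and 0.00653% of the neutrophil-like level. In EC-like cells S100a8 went from 3.01 to 34.3 CPM, and S100a9 from 2.61 to 62.1 CPM, with 83.0% and 88.6% of the ischemia UMIs in 5 of 1041 cells. In pericyte-like cells S100a8 went from 1.92 to 212 CPM, with 98.5% of the ischemia UMIs in 5 of 250 cells, and the control held 2 S100a8 UMIs. The 10 neutrophil markers summed to 0.0627% of their neutrophil-like level in control pericyte-like cells, with 8 at 0, and to 0.557% in ischemia, with none at 0, and Retnlg had 0 and 55 UMIs. In CD-PC-like cells S100a8 went from 0.484 to 46.1 CPM, with 95.1% in 5 of 306 cells, and the marker sum went from 0.0788% to 0.133%, with 7 and 2 markers at 0. In EC-like cells that sum went from 0.111% to 0.155%, with 2 and 0 at 0. Without the 5 richest cells the ischemia level of S100a8 was 5.89 CPM in EC-like, 3.47 CPM in pericyte-like and 2.30 CPM in CD-PC-like cells, and the pericyte-like ratio of 110 became 1.18 against the limit of 3 control UMIs. Without all other cells that had a UMI of the neutrophil genes Retnlg, Cxcr2 or Stfa2l1, the S100a8 ratio was 2.17 in EC-like, 2.61 in pericyte-like and 5.44 in CD-PC-like cells. For S100a9 it was then 2.99, 5.81 and 3.48, so each stayed at least 2-fold but far below its value with those cells.

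Macrophage-like cells of the ischemic kidney as a whole carried S100a8 and S100a9 in another proportion than neutrophil-like cells did. Neutrophil-like cells had 1.56 (1.503 to 1.618) S100a9 UMIs per S100a8 UMI in control and 1.59 (1.57 to 1.61) in ischemia. In the ischemia library the same ratio was 1.81 (1.53 to 2.14) in EC-like, 1.70 (1.503 to 1.936) in pericyte-like, 1.93 (1.55 to 2.41) in PT-like and 1.48 (1.16 to 1.89) in TAL-like cells, and lower, at 1.30 (1.14 to 1.47), in CD-PC-like cells. In macrophage-like cells it was 0.391 (0.349 to 0.438), from 1083 S100a8 and 424 S100a9 UMIs, and Retnlg had 0 UMIs there, while the 10 markers together stood at 0.922% of the neutrophil-like level in control and 1.33% in ischemia, with 4 and 1 at 0. S100a8 measured 1.12 CPM in control, from 2 UMIs, and 200 CPM in ischemia, a ratio of 179 (49.5 to 1482). Without integration the macrophage-like ratios were 21.7 for S100a8 and 2.94 for S100a9, and the latter was 140 (25.1 to 5557) with it. Without the 5 richest cells of each library, the ischemia level of S100a8 was 94.9 CPM and that of S100a9 was 18.6 CPM, and the control library had 0 UMIs of either.

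**Figure D3:**
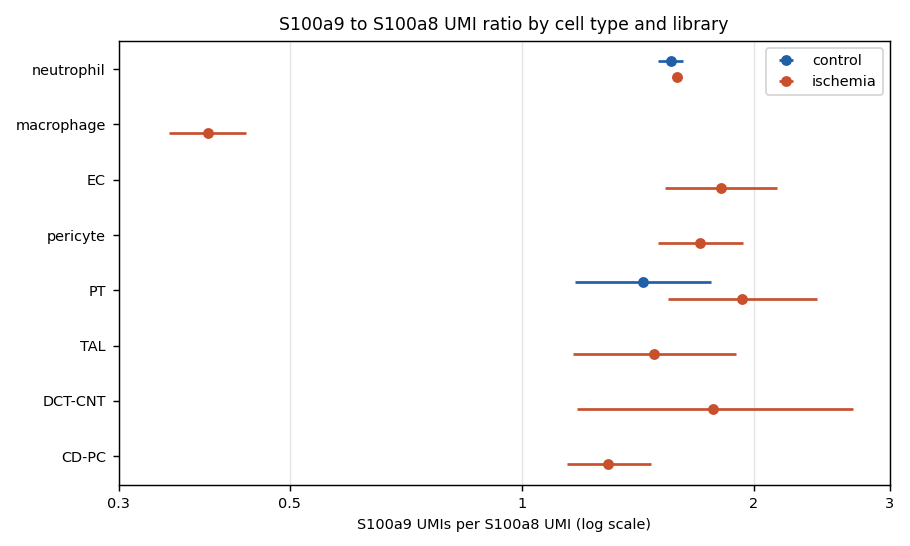
S100a9 UMIs per S100a8 UMI (x axis, log scale) by cell type (y axis), in control (blue) and ischemia (orange), for cell types and libraries with at least 50 UMIs of the 2 genes together. Bars are exact 95% intervals. The ischemia macrophage-like cells, at 0.391, lie apart from the other types, which lie between 1.30 and 1.93.

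Within the macrophage-like cells, S100a8 lay mostly in the cells that carried monocyte markers. This group, which a clustering without integration set apart, held 19 control and 278 ischemia cells, with all 8 monocyte markers and all 9 macrophage markers detected. In ischemia S100a8 measured 358 CPM in it and S100a9 70.6 CPM, with a UMI in 62 and 44 of the 278 cells and 56.0% of the S100a8 UMIs in 5 of them. In control there was 1 UMI of each. The C1q-high group, of 222 control and 241 ischemia cells, had 60.8 CPM of S100a8 and 104 CPM of S100a9 in ischemia, with 95.6% of the S100a8 UMIs in 5 cells. The low proportion of S100a9 belonged to the monocyte-marker group, with 0.197 (0.168 to 0.231) S100a9 UMIs per S100a8 UMI, while the C1q-high group had 1.72 (1.38 to 2.14), an interval that holds the neutrophil-like value. The group with dendritic cell markers had 1 S100a8 UMI and 4 S100a9 UMIs in 54 ischemia cells.

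S100a4, also known as fibroblast-specific protein and a binder of non-muscle myosin, was an endothelial and macrophage transcript whose balance shifted. EC-like cells held 59.2% (57.2 to 61.2) of its UMIs in control and 14.3% (13.62 to 15.03) in ischemia. Macrophage-like cells held 31.1% (29.2 to 33.0) and 78.2% (77.3 to 79.0). Of the UMIs of all genes, EC-like cells held 3.99% in control and 5.05% in ischemia, and macrophage-like cells 1.44% and 4.21%. In macrophage-like cells S100a4 went from 403 to 1371 CPM, a ratio of 3.41 (3.15 to 3.68), and in T/NK-like cells from 250 to 603 CPM. In EC-like cells it went the other way, from 276 to 209 CPM, a ratio of 0.757 (0.702 to 0.817), short of 2-fold, and with each cell thinned to 1000 UMIs the EC-like ratio was 1.06.

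The S100a4 level also differed between groups of macrophage-like cells. In the monocyte-marker group it was 1507 CPM in control and 2218 CPM in ischemia, in the C1q-high group 69.3 and 168 CPM, and in the dendritic group 1042 and 2173 CPM. The ratios within these groups, 1.47, 2.42 and 2.09, were all below the 3.41 of the macrophage-like cells together. In tubule cells S100a4 was near the limit of detection, with 0.264 CPM in control and 0.864 CPM in ischemia PT-like cells. The neutrophil-like ratio of 10.2 (1.77 to 409) came from 1 control and 71 ischemia UMIs, 97.2% of the latter in 5 cells, and with those cells left out 0 control and 2 ischemia UMIs remained.

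**Figure D4:**
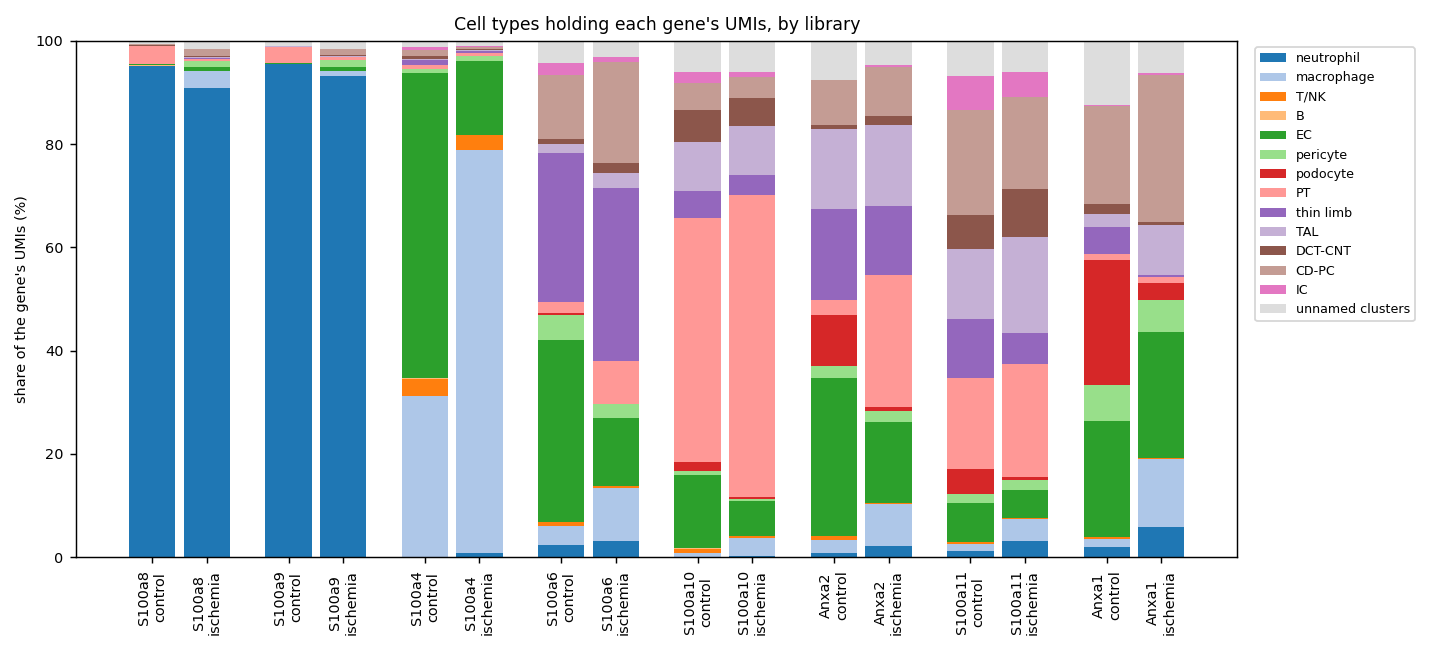
Share of each gene's UMIs (y axis, percent) held by each cell type, as stacked bars that add to 100%, for the control and the ischemia library. S100a8 and S100a9 lie almost wholly in neutrophil-like cells, and S100a4 passes from 59.2% EC-like in control to 78.2% macrophage-like in ischemia. EC-like cells hold 3.99% and 5.05%, and macrophage-like cells 1.44% and 4.21%, of the UMIs of all genes. PT-like cells hold 47.2% and 58.5% of the S100a10 UMIs, beside 57.7% and 53.1% of the UMIs of all genes.

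S100a6, or calcyclin, which binds Cacybp, a protein linked to ubiquitin ligases, was high in neutrophil-like and thin limb-like cells of both libraries. In control it was highest in neutrophil-like cells at 3272 CPM, then in thin limb-like cells at 2810 CPM and EC-like cells at 1187 CPM, and lowest in PT-like cells at 4.85 CPM. In ischemia thin limb-like cells stood first at 12507 CPM, a ratio of 4.45 (4.32 to 4.59), followed by neutrophil-like cells at 3523 CPM. CD-PC-like cells at 1863 CPM and EC-like cells at 1860 CPM had overlapping intervals. With 90 control and 77 ischemia cells, thin limb-like cells held 28.8% of the S100a6 UMIs of the control library and 33.6% of those of the ischemia library. Without the 5 richest cells of each library, 2417 of their 4841 control and 17046 of their 30920 ischemia UMIs remained. Their levels were then 1655 and 8469 CPM, a ratio of 5.12 (4.90 to 5.34). The genes that led the thin limb-like cluster were Fst, Slc14a2, Lypd2 and Bst1, and Psca and Ankrd1 were also among its 10 leading genes.

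In PT-like cells S100a6 went from 4.85 to 112 CPM, a ratio of 23.0 (20.7 to 25.7). Without the 5 richest cells of each library the PT-like ratio was 21.6, and with each cell thinned to 1000 UMIs it was 12.1. In CD-PC-like cells it went from 249 to 1863 CPM, a ratio of 7.48 (7.15 to 7.83), but 5 cells held 96.6% of the control UMIs and without the 5 richest cells the levels were 8.71 and 1182 CPM. IC-like cells went from 180 to 436 CPM, with 98.7% of the control UMIs in 5 cells, and without them from 2.42 to 88.3 CPM. TAL-like cells went from 22.7 to 181 CPM and DCT-CNT-like cells from 14.6 to 187 CPM, a ratio of 12.8 that became 30.5 without the 5 richest cells, which held 78.4% of the control UMIs. The IC-like ratio of 2.42 was 1.27 at clustering resolution 0.3. Elsewhere the S100a6 ratio was 1.57 in EC-like, 1.65 in pericyte-like and 1.08 (0.969 to 1.20) in neutrophil-like cells (1.84 without the 5 richest cells), 3.75 (2.01 to 7.64) in B-like and 5.07 (4.68 to 5.51) in macrophage-like cells. Within the groups of macrophage-like cells described above it was 2.97 in the C1q-high, 2.79 in the monocyte-marker and 1.94 in the dendritic group.

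S100a10 and Anxa2, the plasminogen-binding pair, differed in where they were expressed in the control kidney. PT-like cells held 47.2% (46.5 to 47.9) of the S100a10 UMIs in control and 58.5% (58.1 to 58.8) in ischemia. The same cells held 57.7% of the UMIs of all genes in control and 53.1% in ischemia. Their control share of S100a10 was thus below their share of all UMIs. Within PT-like cells S100a10 went from 142 to 759 CPM, a ratio of 5.36 (5.25 to 5.48). Anxa2 was at 2.70 CPM in control PT-like cells and at 84.7 CPM in ischemia, a ratio of 31.4 (27.2 to 36.4), with 194 and 5788 UMIs. The 5 richest cells held 31.4% of the control and 4.84% of the ischemia Anxa2 UMIs, and without them the ratio was 43.7. With each cell thinned to 1000 UMIs it was 15.5.

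In control, Anxa2 was highest in podocyte-like cells at 682 CPM and thin limb-like cells at 675 CPM, whose intervals overlapped. In ischemia thin limb-like cells stood first at 1214 CPM, ahead of podocyte-like cells at 620 CPM. S100a10 was highest in thin limb-like cells in ischemia at 1406 CPM, followed by EC-like cells at 911 CPM, while in control thin limb-like cells at 666 CPM and EC-like cells at 612 CPM overlapped. In podocyte-like cells the Anxa2 ratio was 0.909 (0.773 to 1.06), and in EC-like cells it was 1.35 (1.28 to 1.43).

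Further along the tubule both genes of the pair were higher in ischemia. TAL-like cells went from 159 to 572 CPM of S100a10 and from 79.3 to 241 CPM of Anxa2, ratios of 3.59 and 3.04. DCT-CNT-like cells went from 114 to 530 CPM of S100a10 and from 4.77 to 41.7 CPM of Anxa2. CD-PC-like cells went from 139 to 372 and from 68.7 to 222 CPM. In IC-like cells S100a10 had a ratio of 1.89 (1.68 to 2.13) and Anxa2 one of 10.9 (5.73 to 23.5), from 10 and 107 UMIs. At 1000 UMIs per cell, both genes were found in the same cell in 0.0791% of control and 3.79% of ischemia PT-like cells. The shares were 2.12% and 11.6% in TAL-like cells and 21.1% and 48.7% in thin limb-like cells, against 0 cells in B-like cells of either library. If the genes were detected independently of each other, the ischemia shares would be 2.57% in PT-like, 9.88% in TAL-like and 48.6% in thin limb-like cells, so the thin limb-like share was no higher than the levels of each gene alone give.

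PT-like cells of the ischemic kidney were also split by whether Havcr1, which encodes the injury marker KIM-1, was detected once each cell was thinned to 1000 UMIs, and the levels below use all UMIs of those cells. In the 661 cells with a Havcr1 UMI S100a10 measured 1210 CPM, Anxa2 171 CPM and S100a6 201 CPM. In the 2108 cells without one they measured 595, 53.3 and 78.8 CPM. The 3772 control cells without one had 139, 2.17 and 4.80 CPM. The levels of the 3 genes were thus higher in ischemia than in control among cells in which Havcr1 was not detected at this depth. Cells with a Havcr1 UMI were very few in control, since 3772 of the 3792 thinned control PT-like cells had none. Among cells with one, S100a6 was at least 2-fold higher in ischemia and S100a9 at least 2-fold lower. There S100a10, Anxa2 and S100a11 stayed short of 2-fold in either direction. All these comparisons rest on the very few control cells.

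S100a11, or calgizzarin, was higher in ischemia in every tubule type, by at least 2-fold in 5 of the 6. DCT-CNT-like cells went from 163 to 1047 CPM, a ratio of 6.44 (6.13 to 6.77), the highest for this gene among the 13 types. PT-like cells went from 70.9 to 334 CPM, TAL-like cells from 309 to 1323, CD-PC-like cells from 713 to 1927 and IC-like cells from 872 to 2430. Thin limb-like cells went from 1917 to 2534 CPM, a ratio of 1.32 (1.27 to 1.38). Neutrophil-like cells had the highest level in both libraries, 2672 and 3805 CPM, and PT-like cells the lowest. The 5 richest cells held between 1.71% and 25.5% of the S100a11 UMIs of each tubule type and library.

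Anxa1 differed from its partner. In thin limb-like cells it went from 81.3 CPM in control to 8.49 CPM in ischemia, a ratio of 0.105 (0.0627 to 0.166), from 140 and 21 UMIs. Of the control UMIs 82.1% lay in 5 cells, and without the 5 richest cells of each library the levels were 15.7 and 3.19 CPM and the ratio 0.203. With thinning to 1000 UMIs it was 0.508, no longer 2-fold lower. The 6 urothelium markers summed to 268 CPM in control and 0 in ischemia in the same cluster, 460 of the 461 control UMIs being Psca and 4 of the 6 at 0, and their part in the result was not tested. In TAL-like cells Anxa1 went from 4.88 to 32.7 CPM, a ratio of 6.71 (5.14 to 8.89), with 66.1% of the control and 54.98% of the ischemia UMIs in 5 cells. In CD-PC-like cells Anxa1 went from 60.6 to 146 CPM, a ratio of 2.41 (2.17 to 2.67). The urothelium markers summed to 23.2 CPM there in control and 63.4 CPM in ischemia, with none at 0. That rise was mostly Krt5, with 69 control and 488 ischemia UMIs. Psca had 26 and 59, Upk2 3 and 6, Upk3a 65 and 43, Upk1b 22 and 13, and Upk1a 7 and 6. Their part in the Anxa1 ratio was not tested. In macrophage-like cells Anxa1 went from 25.1 to 121 CPM, a ratio of 4.83 (3.57 to 6.68).

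Podocyte-like cells had the highest Anxa1 level in both libraries, 674 CPM in control and 496 CPM in ischemia, with a ratio of 0.736 (0.616 to 0.874). Neutrophil-like cells followed with 411 and 350 CPM, a ratio of 0.851 (0.629 to 1.17) that became 2.14 without the 5 richest cells, which held 74% of the control UMIs. EC-like cells went from 119 to 187 CPM, and pericyte-like cells had 178 and 165 CPM. PT-like cells had only 29 control and 59 ischemia UMIs.

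In TAL-like cells the counts depended on how cells were assigned. Without integration of the libraries, 486 of the 911 ischemia TAL-like cells fell into an unnamed cluster and 374 into DCT-CNT-like clusters, 12 ischemia cells were named TAL-like in all, and 2 of 4 members compared were at least 2-fold higher. The TAL-like ratios were then 1.77 for S100a6, 1.52 for Anxa2 and 2.50 for S100a11. Mitochondrial genes took 26.5% of the UMIs of control and 22.5% of those of ischemia PT-like cells. With a limit of 25% per cell the PT-like ratios of S100a10, Anxa2 and S100a11 were 4.48, 24.8 and 3.85. TAL-like cells had higher mitochondrial shares than PT-like cells, 32.5% in control and 26.1% in ischemia. The limit took their S100a6 ratio from 7.95 to 3.03, S100a11 from 4.28 to 2.41 and Anxa1 from 6.71 to 3.69. The S100a6 ratio of DCT-CNT-like cells went the other way, from 12.8 to 54.96. The part of the mitochondrial share in these ratios was not tested.

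Of the other S100 genes, 1 of the 5 compared over all kept cells was at least 2-fold higher, S100a14, from 1.04 to 4.19 CPM, and none was at least 2-fold lower. As given above, 8.75% of all genes compared over these cells were at least 2-fold higher, which is also the background for the counts of annexins and of receptors and partners. S100g, the vitamin D-dependent calcium buffer calbindin-D9k, measured 2510 CPM in control and 1798 CPM in ischemia, and S100a1 385 and 417 CPM. By type, S100g was at least 2-fold higher in PT-like, TAL-like and IC-like cells and at least 2-fold lower in thin limb-like and pericyte-like cells. Among the 9 other annexins compared, Anxa3 (18.4 to 52.2 CPM), Anxa5 (89.4 to 194) and Anxa8 (0.184 to 0.598) were at least 2-fold higher and Anxa13 (3.97 to 1.51) was lower. In PT-like cells Anxa3 went from 0.876 to 20.6 CPM, a ratio of 23.5 (18.3 to 30.8), and Anxa5, used to stain dying cells, from 28.7 to 103 CPM.

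Of 13 receptors and binding partners, 5 were at least 2-fold higher over all kept cells and 0 were lower. These were Fpr1 and Fpr2, the formyl peptide receptors that bind annexin A1, Tlr4, a receptor for calprotectin, Myh9, the myosin heavy chain bound by S100A4, and Plaur, the urokinase receptor. Fpr1 went from 0.0882 to 2.67 CPM, and Plaur from 7.15 to 39.2 CPM. Ager, the other calprotectin receptor, had 0.401 and 0.419 CPM. In PT-like cells Plaur went from 0.876 to 18.7 CPM and Ahnak, the large scaffold bound by the S100A10 and annexin A2 complex, from 13.3 to 51.0 CPM. Plat, the tissue plasminogen activator, was at least 2-fold higher in PT-like, thin limb-like, TAL-like, DCT-CNT-like and CD-PC-like cells, from 19.7 to 104 CPM in thin limb-like cells, and went from 754 to 500 CPM in EC-like cells, where its level was far higher than in tubule cells.

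The genes most like each member, by Pearson correlation of log2(CPM + 10) over 26 points (13 types in 2 libraries) among 14314 genes, were as follows, and the points share libraries. S100a8 and S100a9 were most like each other (0.991), then Wfdc21, with Hdc next for S100a8 and Retnlg for S100a9. S100a4 was most like Naip2 (0.942), Cgas and Fam49a, and S100a6 most like Nfkbiz (0.836), Sbno2 and Ppp1r15a. S100a10 was most like Eif6 (0.868), Cdv3 and Nras, and Anxa2 most like Rbms1 (0.840), Gnb2 and Socs3. S100a11 was most like Stat3 (0.853), Plp2 and Cebpd, and Anxa1 most like Fam114a1 (0.912), Grk5 and Ifitm2. S100a10 and Anxa2 correlated at 0.410 over the same points, and S100a11 and Anxa1 at 0.580.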

How the data were processed

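The 2 libraries were made with the 10x Genomics 3′ protocol. The authors deposited UMI counts, not normalized, as 1 matrix per library, and the submitters' processing notes name Cell Ranger 7.0.0 and mm10. A cell stayed if it had 200 genes or more, between 500 and 150000 UMIs, and a mitochondrial share no higher than 55%, which left 124679362 control and 128733541 ischemia UMIs. Clusters were made in R 4.3.3 (Seurat 5.3.0) on 2000 variable genes, S100 and annexin genes left out, after integration of the libraries, with 30 components and resolution 0.6 in place of the study's 0.3. Other steps used Python 3.11.15, numpy 2.4.6, scipy 1.17.1, pandas 2.3.3, matplotlib 3.10.9 and scanpy 1.11.5.

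Clusters were named by the marker list that scored highest, the score being the mean over markers of log2 cluster CPM relative to the median cluster (10 CPM added). A name needed 3 markers with 10 UMIs each and more own than foreign markers among the 10 leading genes, and a cluster of low UMI count with no own marker there stayed unnamed. Where no list had a marker there, the next class had to score below 0.25 of the best. This rule was set after the markers were seen, and injured PT counted as PT. Scrublet called 0 cells in either library, so it did not work and doublets remained, and an alternative dropped the 8% of cells ranked top by its score.

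With 1 library per condition no test was run. Intervals are exact Poisson, Clopper-Pearson or conditional exact at 95%, and 0 counts were set to 3 for a ratio. The ratio and thinning code was tested on simulated data. The members, the gene lists and the resolution were chosen with earlier results of these data known. Named genes are the members, 3 lists of related genes, the markers, and the 3 genes most like each member among those with at least 200 UMIs.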

Additional observations from a re-analysis of the deposited data

Results flagged for a closer look

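Anxa1 moved in opposite directions in 2 cell types. Its ratio of ischemia to control was 0.105 in thin limb-like cells and 6.71 in TAL-like cells, each from 1 library per condition, and the difference between the types was not tested. The thin limb-like value was 0.508 with each cell thinned to 1000 UMIs, and urothelium markers, nearly all Psca, went from 268 to 0 CPM in the same cluster.

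The cells that no marker list named also held the members at higher levels in ischemia. They entered the values over all kept cells, the ratios at a fixed mix and the shares of UMIs, but no named type. In the largest unnamed cluster 7 of the 8 members were at least 2-fold higher, against 8.34% of all genes compared there, where control and ischemia levels were 145 and 861 CPM for S100a10, 207 and 928 CPM for S100a11, and 38.5 and 358 CPM for S100a6. Its first leading genes were Lrp1b, 1700054A03Rik, Grik1 and Xlr5a, followed by Hba-a2 and Hba-a1, which encode haemoglobin chains. The early PT list scored highest in it (1.89), and the TAL list came next (1.44). Without integration, unnamed clusters that also had Lrp1b, 1700054A03Rik, Grik1 and Xlr5a among their 10 leading genes divided nearly by library. Their control and ischemia cells numbered 87 and 6329, and 4403 and 68. Whether the levels of the largest unnamed cluster compare like cells was not tested. In an unnamed cluster of 14 control and 19 ischemia cells, led by Tnc, Kcnmb2 and Igfbp2, 3 of 7 members compared were at least 2-fold higher, against 5.56% of all genes compared, namely S100a8, S100a9 and S100a6. The S100a8 UMIs of that cluster, 138 in all, lay in 1 cell.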

How the results depend on the processing

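The count of members at least 2-fold higher in macrophage-like and CD-PC-like cells was 8 and 7 under every alternative that was run. The split of macrophage-like cells into groups was not among these alternatives. In the monocyte-marker and dendritic groups some members fell short of 2-fold. In neutrophil-like cells the count of 2 came to 1 with the mean of each cell's CPM, 0 with thinning to 1000 UMIs, 1 when the 8% of cells ranked top by doublet score were dropped, and 3 without the 5 richest cells (S100a10, Anxa2 and Anxa1, with S100a4 lost). The last of these left out 5 of 19 control but 5 of 178 ischemia cells, which lowers the control levels more. In podocyte-like cells the count of 0 came to 2 with the mean of each cell's CPM, 2 with thinning, 1 with no minimum of UMIs and 1 without the 5 richest cells. In B-like cells the count of 1 came to 4 without integration and 2 with thinning. With no minimum of UMIs it came to 2 in T/NK-like and 6 in IC-like cells, and without integration it came to 2 in TAL-like cells. The cause was not tested.

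Of the ratios of at least 2-fold, those that turned below 1 were all in neutrophil-like cells. For S100a10, 4.17 became 0.619 at resolution 0.3, 0.617 with S100 and annexin genes among the variable genes and 0.854 with thinning. Under the first 2 of these the neutrophil-like cluster held 33 control cells in place of 19, and the pericyte list scored second. At resolution 0.3 the added cells were those of the small unnamed cluster, with 230 control S100a10 UMIs against 6 in neutrophil-like cells. The value of 0.619 therefore does not describe neutrophil-like cells alone. For S100a4, 10.2 became 0.0712 with thinning, 0.870 without the cells of top doublet score and 0.0894 without the 5 richest cells. Some other ratios also turned or moved by over 1.5 times, and several of these are given beside their main value. At resolution 0.3 no B-like cluster was named.

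In PT-like cells S100a8 and S100a9 had ratios of 0.783 and 1.05, and without the 5 richest cells 4.33 and 6.24. Leaving those cells out took the S100a8 UMIs from 168 to 28 in control but from 125 to 115 in ischemia. The alternatives without the cells of top doublet score, without the 5 richest cells and without 20 control and 78 ischemia cells with a UMI of Retnlg, Cxcr2 or Stfa2l1 were chosen after seeing the data. Leaving out Scrublet's calls changed nothing, since it made none. No paired analysis was possible because each condition has 1 library. Differences in levels from a few UMIs were not detectable at this depth.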
